A study of Homo sapiens with 4 samples.

Results

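The metallothionein genes described here are MT2A and 7 MT1 genes (MT1A, MT1E, MT1F, MT1G, MT1H, MT1M and MT1X), together with MTF1, the transcription factor that senses zinc and drives them. They were taken by gene symbol, and all 9 members had a row among the 18398 RefSeq transcripts measured. The RNA came from Huh1 and Huh7, established human hepatocellular carcinoma cell lines, after transfection with 15 nM of a negative control siRNA that targets no endogenous transcript (NCsiRNA) or of an siRNA against CDCA8 (CDCA8siRNA), a subunit of the chromosomal passenger complex that acts in mitosis. RNA was taken at 48 h. There were 4 libraries, 1 for each cell line and siRNA, with no repeat of any condition, and both lines carried their own culture history, which cannot be told apart from the line itself.

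Metallothioneins are small cysteine-rich proteins that bind zinc and copper, buffer free metal in the cell and can take up reactive oxygen species. Zinc entering a cell binds the zinc fingers of MTF1, which then moves to metal response elements (MREs) in the promoters of metallothionein genes, and glucocorticoids and oxidants are further inducers. The liver is a main site of their expression, and hepatocellular carcinomas often express less of them than the surrounding liver.

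The first 30 coding bases of each metallothionein show what the family shares. Cysteine codons are in capitals, and the sequences are from GENCODE transcripts on GRCh38, read from the start codon.
MT2A: atggatcccaacTGCtccTGCgccgccggt
MT1A: atggaccccaacTGCtccTGCgccactggt
MT1E: atggaccccaacTGCtctTGCgccactggt
MT1F: atggaccccaacTGCtccTGCgccgctggt
MT1G: atggaccccaacTGCtccTGTgccgctggt
MT1H: atggaccccaacTGCtccTGCgaggctggt
MT1M: atggaccccaacTGCtccTGCaccactggt
MT1X: atggaccccaacTGCtccTGCtcgcctgtt
Each of the 8 coding sequences had 61 codons, of which 20 encoded cysteine. Identity over the coding bases ranged from 88.7% (MT1F and MT1X) to 95.2% (MT2A and MT1G), with a median of 91.9% over the 28 pairs. Between 2.17% (MT2A) and 19.9% (MT1G) of the 50-base stretches in a member's transcript also occurred in another metallothionein transcript, and no stretch of 100 bases did in any of the 8. MT1G and MT1X, at 19.9% and 14.7%, had the most. How reads from shared stretches were assigned is not given in the sources used here, and the levels of single MT1 genes are uncertain to that extent. The 8 genes lie within 76.0 kb on the long arm of chromosome 16, 7 on the plus strand and MT1G on the minus strand, each with 3 exons. MTF1 is on the minus strand of chromosome 1, with 11 exons.

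Promoter sequence was at hand for 4 of the 9 members. In RefSeq windows of 250 bases before to 50 bases after the transcript start (GRCh38.p14), the MRE core, TGCACNC or TGCGCNC on either strand, occurred 8 times at MT2A (chr16:56608334-56608633, plus strand), 8 times at MT1H (chr16:56669564-56669863, plus strand) and 4 times at MT1X (chr16:56682220-56682519, plus strand). It did not occur at MTF1 (chr1:37859543-37859842, minus strand). Of 35116 promoters in the table, 29.6% held at least 1 core, 0.601% at least 4 and 0.020% at least 8. The sites in the 100 bases before the start are shown with the core in capitals and up to 8 bases on each side. This stretch was chosen with the RNA levels known. MT1H and MT1X both carried cores at 78 and 53 bases, and their RNA levels lay far apart. A link between cores and levels was not tested. MT1H had a further core at 8 bases that MT1X lacked, and the one core of MT2A after the start, which begins at base 31 of the transcript, is not shown.
MT2A, 88 bases before the start: cgcggggcGTGTGCAggcagcgc
MT2A, 54 bases before the start: ggggctttTGCACTCgtcccggc
MT2A, 8 bases before the start: tgccgcgcTGCACTCc
MT1H, 78 bases before the start: agtgggtcGGGTGCAagggtggg
MT1H, 53 bases before the start: agggtctcTGCACCCggctccct
MT1H, 8 bases before the start: ccaactgtTGCGCTCc
MT1X, 78 bases before the start: gcaggggcGGGTGCAaggacgag
MT1X, 53 bases before the start: ggggcctcTGCGCCCggccctct
The core of the antioxidant response element (ARE, TGACNNNGC on either strand), which NFE2L2 binds, occurred once each at MT2A and MT1X, did not occur at MT1H or MTF1, and was held by 13.3% of all promoters. The match at MT2A, 104 bases before the start, also holds the letters of an AP-1 site, and no ARE core overlapped an MRE core.
MT2A, ARE core: gccgcaagTGACTCAGCgcggggcg

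Values are RPKM, reads divided by the transcript length in kilobases and by the depth of the library. The constants behind them correspond to 12197606 to 13384836 reads per library. Differences are of log2(RPKM + 1), which understates the change of low genes, and 2-fold on this scale was the threshold within a pair of libraries. CDCA8 itself fell to 0.243 of its control level in Huh1 and to 0.143 in Huh7 (limma fit described below, -2.26, adjusted p = 0.0019). All 10 hepatocyte markers examined, ALB and AFP among them, were above 1 RPKM in every library. Their levels differed between the lines, with 2 called higher and 7 lower in Huh7 in limma, beside 42.5% and 28.7% of all genes. With NCsiRNA, AFP was 34.8 times higher in Huh7 and ALB was at 0.338 of its Huh1 level. Of 6 markers of other cells, 5 had a row, and their summed level was 98.4 to 108 RPKM in Huh1 and 143 to 187 RPKM in Huh7. KRT7, a bile duct keratin, made up 81.7 and 84.4 RPKM in Huh1 against 0.572 and 0.660 RPKM in Huh7, and the macrophage marker CD68 was at 23.3 and 16.5 RPKM in Huh1 against 3.71 and 3.73 RPKM in Huh7. COL1A1, a fibrillar collagen, was at 107 and 125 RPKM in Huh7 against 0.115 and 0.122 RPKM in Huh1, while the leukocyte marker PTPRC was listed at 0 in Huh1 with NCsiRNA and stayed at or under 0.417 RPKM elsewhere. These differences run with the cell line, as do those of the metallothioneins below, and their part in them was not tested. In bulk RNA, fewer expressing cells and less RNA per cell cannot be told apart.

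The metallothioneins were far higher in Huh7 than in Huh1. Summed over MT2A and the 7 MT1 genes, the level was 14.4 RPKM with NCsiRNA and 10.8 RPKM with CDCA8siRNA in Huh1, and 256 and 233 RPKM in Huh7. The sum was therefore 17.7 times higher in Huh7 with NCsiRNA and 21.7 times higher with CDCA8siRNA. Both Huh7 libraries stood above both Huh1 libraries for every metallothionein.

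**Figure D1:**
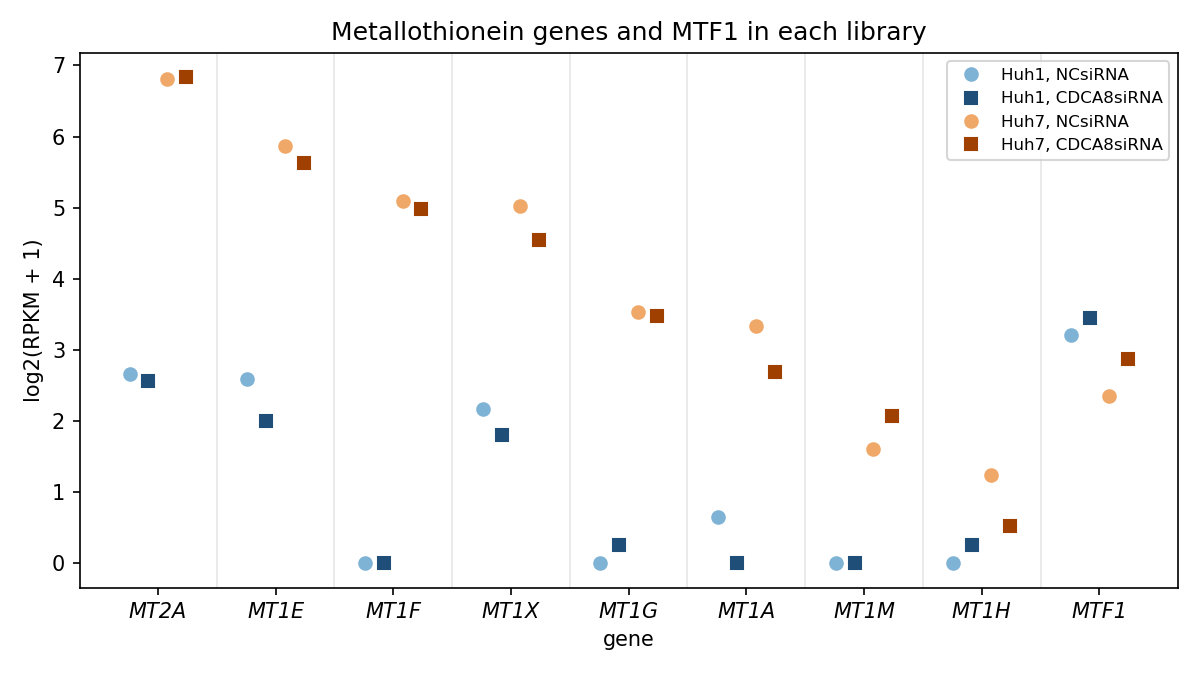
log2(RPKM + 1) of each metallothionein and of MTF1 in each of the 4 libraries (circles, NCsiRNA; squares, CDCA8siRNA; blue, Huh1; orange, Huh7). The Huh7 points lie above the Huh1 points for the 8 metallothioneins and below them for MTF1, and MT1F and MT1M sit at 0 in both Huh1 libraries.

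MT2A, the most widely expressed human metallothionein, was the highest member in Huh7. It was at 5.35 RPKM (60 reads) in Huh1 with NCsiRNA, 4.88 RPKM (54 reads) in Huh1 with CDCA8siRNA, 111 RPKM (1131 reads) in Huh7 with NCsiRNA and 113 RPKM (1162 reads) in Huh7 with CDCA8siRNA. With NCsiRNA the ratio of Huh7 to Huh1 was 20.7 (95% exact binomial interval 15.9 to 27.3), and with CDCA8siRNA it was 23.1 (17.6 to 31.0). Intervals here and below cover counting error only. MT2A ranked 612 and 595 among all transcripts in the Huh7 libraries and 7961 and 8320 in the Huh1 libraries.

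MT1E and MT1X were the MT1 genes detected in all 4 libraries. MT1E was at 5.02 and 2.996 RPKM in Huh1 and at 57.2 and 48.4 RPKM in Huh7, with NCsiRNA given first here and in the rest of the text. The ratio of Huh7 to Huh1 with NCsiRNA was 11.4 (interval 8.49 to 15.8). MT1X was at 3.50 and 2.49 RPKM in Huh1 and at 31.4 and 22.3 RPKM in Huh7, with a ratio of 8.99 (5.73 to 14.98) for NCsiRNA.

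The remaining 5 MT1 genes were at or near 0 in Huh1. MT1F was listed at 0 in both Huh1 libraries and was at 33.2 and 30.5 RPKM (238 and 220 reads) in Huh7, which made it the third most abundant member there. MT1M was also listed at 0 in both Huh1 libraries and was at 2.05 and 3.20 RPKM in Huh7. No fold is given for these genes, since the Huh1 value is 0.

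MT1G was listed at 0 in Huh1 with NCsiRNA and was at 0.191 RPKM, which is 1 read, with CDCA8siRNA, against 10.6 and 10.1 RPKM (51 and 49 reads) in Huh7. MT1A was at 0.566 RPKM (3 reads) in Huh1 with NCsiRNA, was listed at 0 with CDCA8siRNA, and was at 9.11 and 5.47 RPKM in Huh7. Its ratio of Huh7 to Huh1 with NCsiRNA, 16.1, had an interval of 5.16 to 81.0. MT1H was the lowest member, listed at 0 and at 0.191 RPKM in Huh1 and at 1.36 and 0.431 RPKM in Huh7, where the latter is about 2 reads. The promoter windows of MT1H and MT2A each held 8 MRE cores, for MT2A including a core after the start. In Huh7 with NCsiRNA, MT2A was at 111 RPKM and MT1H at 1.36 RPKM. A link between cores and levels was not tested.

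In Huh7 with NCsiRNA the order of the levels was MT2A, MT1E, MT1F, MT1X, MT1G, MT1A, MT1M and MT1H. The counting intervals of 3 neighbouring pairs overlapped, namely MT1F (29.1 to 37.7 RPKM) and MT1X (26.9 to 36.5), MT1G and MT1A, and MT1M and MT1H. In Huh1 with NCsiRNA the intervals of MT2A (4.08 to 6.89 RPKM), MT1E (3.69 to 6.67) and MT1X (2.17 to 5.34) all overlapped. MT2A made up 43.3% of the summed level in Huh7 and 37.1% in Huh1 with NCsiRNA, whereas MT1E made up 22.4% in Huh7 and 34.8% in Huh1, and MT1X 12.3% and 24.2%. MT1F, listed at 0 in Huh1, held 13.0% of it in Huh7.

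MTF1 ran the other way. It was at 8.30 and 9.97 RPKM in Huh1 (885 and 1048 reads) and at 4.09 and 6.31 RPKM in Huh7 (398 and 617 reads). The ratio of Huh7 to Huh1 was 0.493 (interval 0.437 to 0.556) with NCsiRNA and 0.633 (0.572 to 0.700) with CDCA8siRNA. In Huh1, MTF1 was higher than any single metallothionein, whereas in Huh7 it lay below 6 of the 8 with NCsiRNA.

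With NCsiRNA, 8 of the 9 members, the 8 metallothioneins, were at least 2-fold higher in Huh7 and 0 were 2-fold lower, beside 17.0% of 11896 genes tested that were higher and 10.2% that were lower. With CDCA8siRNA, 7 members were 2-fold higher and 0 lower, and MT1H was under 1 RPKM in both libraries. The shares of all genes were then 17.4% and 10.1%. The median log2 difference of the 8 metallothioneins with NCsiRNA was 3.06, beside 0.14 over all genes tested. These are differences between 2 libraries and carry no test. MT1A, MT1F, MT1G, MT1H and MT1M passed the minimum of 1 RPKM only through Huh7, so a difference in that direction was built into the filter for them, but not for MT2A, MT1E and MT1X.

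limma was fitted to all 4 libraries with the cell line and the siRNA as factors and 1 residual degree of freedom, and p-values were adjusted over 12148 genes. Such a p weighs the mean difference between the lines against a variance drawn mostly from all genes (7.48 prior degrees of freedom). It does not measure how separate cultures vary, nor by itself whether a gene differed alike under both siRNAs. MT1H, for one, differed by 1.24 with NCsiRNA and by 0.27 with CDCA8siRNA. All 9 members passed for the cell line, 8 metallothioneins higher in Huh7, where 42.5% of all genes passed in that direction, and MTF1 lower, where 28.7% of all genes did. For MT1A, MT1F, MT1G, MT1H and MT1M this direction was again built in by the filter, so their coefficients describe these libraries and only MT2A, MT1E, MT1X and MTF1 were free to differ either way. MT2A differed by 4.21 on the log2 scale (limma adjusted p = 5.83e-09), MT1E by 3.45 and MT1X by 2.79. The coefficient was 5.04 for MT1F, 3.37 for MT1G, 2.69 for MT1A and 1.84 for MT1M. The order of these values depends on the pseudocount: with 0.1 RPKM they were 8.32 for MT1F, 5.93 for MT1G, 4.79 for MT1A and 4.73 for MT1M, all above MT2A at 4.42, while MT1E was at 3.73 and MT1X at 3.12. MT1H, at 0.75 (limma adjusted p = 0.0251) and 2.37 with the lower pseudocount, lost its call without the filter on low values and with the cell line as the only factor. MTF1 differed by -0.73 (limma adjusted p = 0.000678).

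The expressed genes around the cluster lay within 2-fold between the lines. Of 11 flanking genes, 6 reached 1 RPKM, and 0 were 2-fold apart between the lines under either siRNA. Of all genes, 17.0% were higher and 10.2% lower with NCsiRNA, and 17.4% and 10.1% with CDCA8siRNA, so 0 of 6 is near these shares. Their median log2 difference with NCsiRNA was 0.08. For the cell line, limma called 2 of the 6, beside 42.5% of all genes as higher and 28.7% as lower. For the siRNA, limma called 0 of the 6, beside 3.74% of all genes as higher and 2.65% as lower, and 0 at an unadjusted p under 0.05. Of the nearest expressed neighbours, BBS2, a subunit of the Bardet-Biedl complex of the cilium, was at 6.03 and 6.73 RPKM in Huh1 and 6.73 and 6.40 RPKM in Huh7, and NUP93, a nuclear pore protein, was at 30.4 and 29.2 RPKM in Huh1 and 30.7 and 26.6 RPKM in Huh7. OGFOD1, which overlaps BBS2 on the opposite strand so that unstranded reads could not be told apart there, was at 24.3 RPKM in both Huh1 libraries and at 21.4 and 19.5 RPKM in Huh7. NUDT21, a pre-mRNA cleavage factor, differed by 0.20 (limma adjusted p = 0.0743). HERPUD1, which acts in degradation of proteins from the endoplasmic reticulum, was higher in Huh7 by 0.35 (limma adjusted p = 0.0106). Of the other metallothionein genes on chromosome 16, MT3, best known from brain, MT4, from stratified epithelium, and MT1B were listed at 0 in all libraries apart from 0.0107 RPKM of MT1B in 1 Huh7 library. A further 4 copies (MT1L, MT1JP, MT1DP and MT1IP) had no row under these symbols among the transcripts measured.

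**Figure D2:**
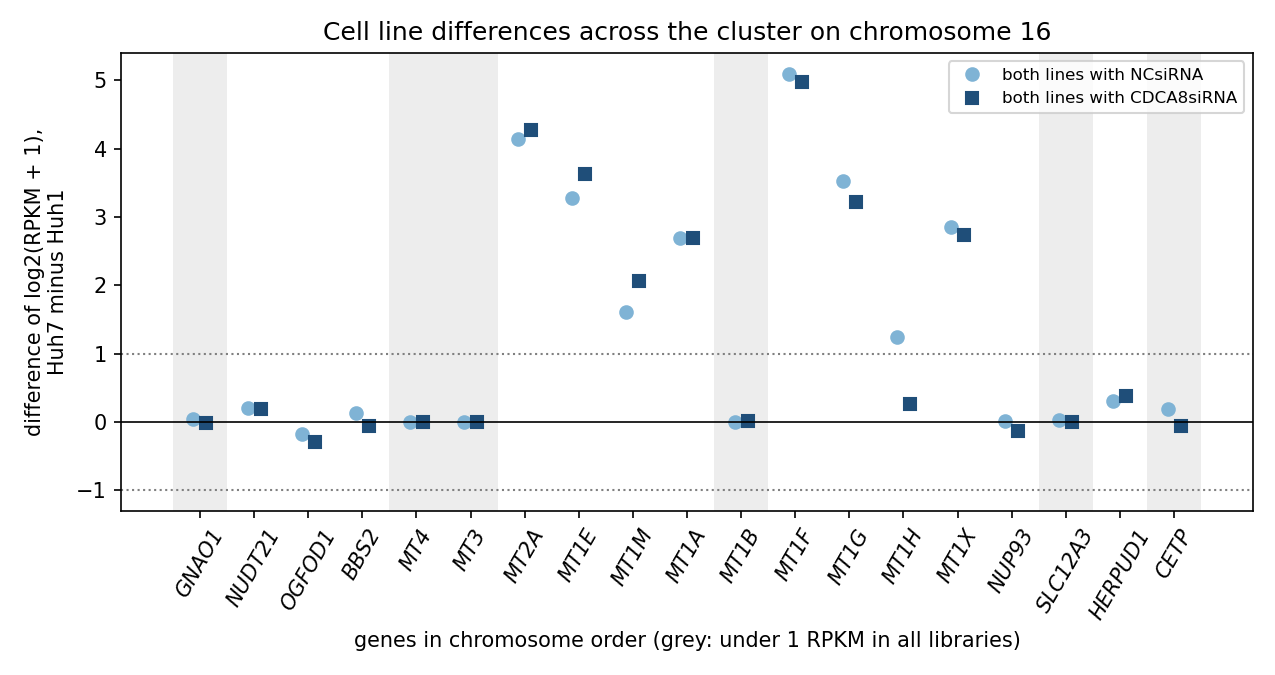
Difference of log2(RPKM + 1) between Huh7 and Huh1 for the genes of the cluster and its flanks in their order on chromosome 16 (circles, both lines with NCsiRNA; squares, both with CDCA8siRNA; dotted lines, 2-fold; grey, genes under 1 RPKM in every library; 1 flanking gene is not shown). MT2A, MT1E, MT1M, MT1A, MT1F, MT1G and MT1X lie above 2-fold under both siRNAs, while NUDT21 to BBS2 on one side and NUP93 to CETP on the other lie inside it.

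On the scale of log2(RPKM + 1), no member changed 2-fold between CDCA8siRNA and NCsiRNA. In Huh1, 4 members reached 1 RPKM (MT2A, MT1E, MT1X and MTF1) and 0 changed 2-fold, beside 0.494% of all genes tested. In Huh7 all 9 reached it and 0 changed 2-fold, beside 1.57% of all genes. Both 0 of 4 and 0 of 9 are near these shares. The summed metallothionein level with CDCA8siRNA was 0.745 of that with NCsiRNA in Huh1 and 0.913 in Huh7. Without MT2A, the sum over the 7 MT1 genes was 0.646 of the control in Huh1 and 0.831 in Huh7. Of 10 hepatocyte markers, 8 were also lower with CDCA8siRNA in limma, 7 of them past the threshold beside 2.65% of all genes. The other 2, APOA2 and TTR, were higher and did not pass. APOA2 rose from 1072 to 1336 RPKM in Huh1 and TTR from 29.3 to 48.5 RPKM in Huh7. The summed level of the 10 was 6287 and 5340 RPKM in Huh1 and 3472 and 2485 RPKM in Huh7. Their part in the metallothionein values was not tested. All 7 calls were lost without the filter, without the trend and with the siRNA as the only factor.

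MT2A differed little between the siRNAs. The ratio of CDCA8siRNA to NCsiRNA was 0.913 (interval 0.620 to 1.34) in Huh1 and 1.02 (0.941 to 1.11) in Huh7, and limma gave a difference of -0.04 (SE 0.10, adjusted p = 0.851). Counting error alone left room for a change of either sign in both lines.

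MT1E and MT1X were lower with CDCA8siRNA in both lines. The ratio of MT1E was 0.597 (interval 0.364 to 0.985) in Huh1 and 0.846 (0.741 to 0.966) in Huh7. The ratio of MT1X was 0.712 (0.347 to 1.47) in Huh1 and 0.709 (0.556 to 0.896) in Huh7. In limma, MT1E differed by -0.41 (adjusted p = 0.0740) and MT1X by -0.42 (adjusted p = 0.0562), neither past the threshold of 0.05, and both passed it after quantile normalization of the libraries, with adjusted p of 0.0344 and 0.0204.

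MT1A was the single member past the limma threshold for the siRNA. It differed by -0.65 (SE 0.14, adjusted p = 0.0352), beside 2.65% of all genes that passed as lower and 3.74% as higher. In Huh7 this was a decrease from 9.11 to 5.47 RPKM, a ratio of 0.601 whose counting interval, 0.363 to 1.01, reached 1. In Huh1 it was a decrease from 3 reads to 0. The call was lost with a pseudocount of 0.1 RPKM (adjusted p = 0.0633), a minimum of 5 RPKM (0.0559), no minimum (0.265), no mean-variance trend (0.0643) and the siRNA as the only factor (1.00).

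The other MT1 genes showed no common direction. In Huh7 the ratio of CDCA8siRNA to NCsiRNA was 0.919 (interval 0.762 to 1.11) for MT1F and 0.955 (0.632 to 1.44) for MT1G. It was 1.56 (0.878 to 2.84) for MT1M, and 0.316 (0.0288 to 1.49) for MT1H, which rested on about 7 and 2 reads. All 4 intervals held 1.

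MTF1 was higher with CDCA8siRNA in both lines, by a ratio of 1.20 (interval 1.10 to 1.32) in Huh1 and 1.54 (1.36 to 1.75) in Huh7. Counting error was below these differences, and the spread between cultures is unknown. limma gave 0.38 (SE 0.12, adjusted p = 0.107), which did not pass. The median over the 8 metallothioneins in limma was -0.15, with 2 members above 0 and 6 below, beside a median of 0.03 over all genes.

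**Figure D3:**
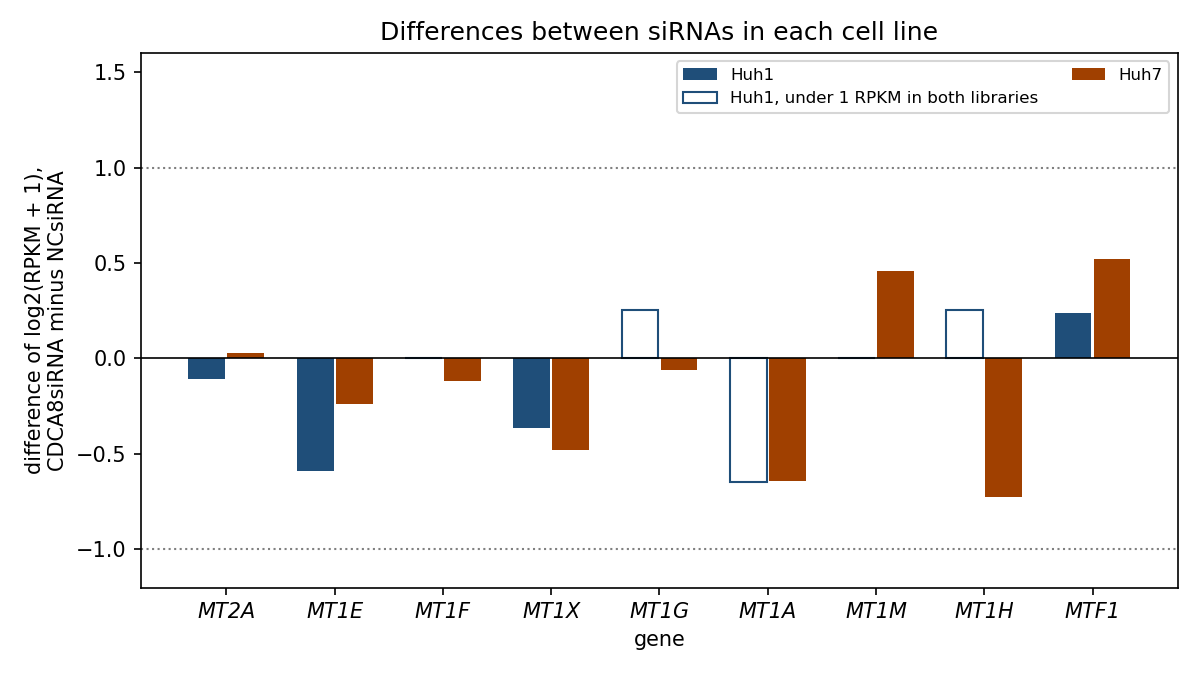
Difference of log2(RPKM + 1) between CDCA8siRNA and NCsiRNA for each member in Huh1 (blue) and Huh7 (orange), with open bars for genes under 1 RPKM in both libraries of the pair and dotted lines at 2-fold. MT1E and MT1X are below 0 and MTF1 above 0 in both lines, MT2A stays within 0.11 of 0, and no bar reaches a dotted line.

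Genes that move zinc were examined next, since the zinc available to MTF1 depends on them. Beside the metallothioneins and hepatocyte markers, 6 listed genes passed for the siRNA, where 3.74% of all genes passed as higher and 2.65% as lower. Of these 6, limma called none without the filter or with the siRNA as the only factor, and COMMD1 alone without the trend. Of 10 zinc exporters (SLC30 family), 7 were tested and 2 passed for the siRNA, both lower, beside 2.65% of all genes. SLC30A5, which loads zinc into the early secretory pathway, fell in Huh1 (30.8 to 19.8 RPKM) and in Huh7 (17.5 to 8.63 RPKM, limma -0.78, adjusted p = 0.00965). SLC30A10, a manganese exporter of the same family, fell with CDCA8siRNA in Huh1, 4.53 to 2.60 RPKM, and in Huh7, 7.73 to 3.71 RPKM (limma -0.75, adjusted p = 0.0167). SLC30A6, the partner of SLC30A5 in zinc transport, was at 9.30 and 8.89 RPKM in Huh1 and 11.4 and 9.65 RPKM in Huh7 (limma adjusted p = 0.497). SLC30A1, the plasma membrane exporter that MTF1 also controls and that was singled out after its values were seen, was at 20.0 and 22.3 RPKM in Huh1 and 14.4 and 15.5 RPKM in Huh7, lower in Huh7 by a limma coefficient of -0.47 (adjusted p = 0.00234). MTF1 was also lower in Huh7 and the metallothioneins were higher, and a link between these differences was not tested.

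Of 14 zinc importers (SLC39 family), 12 were tested and 1 passed for the siRNA, as lower, beside 2.65% of all genes. SLC39A14, an importer of zinc and of iron not bound to transferrin in hepatocytes, fell with CDCA8siRNA in Huh1, 42.2 to 31.9 RPKM, and in Huh7, 68.7 to 50.6 RPKM (limma -0.41, adjusted p = 0.0313). SLC39A5 was at 1.87 and 1.52 RPKM in Huh1 and 1.11 and 0.409 RPKM in Huh7, and SLC39A13 at 4.12 and 4.24 RPKM in Huh1 and 5.06 and 7.82 RPKM in Huh7. Neither passed for the siRNA. Between the lines, 4 of 12 importers were higher in Huh7 and 3 lower, and 2 of 7 exporters were higher and 4 lower, beside 42.5% of all genes higher and 28.7% lower. The median line coefficient was -0.01 for importers and -0.47 for exporters.

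Copper handling, the other metal task of metallothioneins, had 13 genes, all tested, of which 1 passed for the siRNA, as lower. Of all genes, 2.65% passed as lower. COMMD1, which takes part in copper export and ATP7B trafficking, fell with CDCA8siRNA in Huh1, 6.50 to 2.66 RPKM, and in Huh7, 15.4 to 8.004 RPKM (limma -0.95, adjusted p = 0.00495). The copper pumps ATP7A (5.31 and 7.44 RPKM in Huh1, 0.592 and 0.848 RPKM in Huh7) and ATP7B (3.79 and 2.79 RPKM in Huh1, 4.58 and 3.45 RPKM in Huh7) did not pass for the siRNA. ATP7A was lower in Huh7 (limma -2.09, adjusted p = 2.72e-06), and between the lines 4 of 13 copper genes were higher in Huh7 and 7 lower, beside 42.5% and 28.7% of all genes.

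The 12 oxidant response genes tested, targets or regulators of NFE2L2, were all lower in Huh7, by a median limma coefficient of -2.25, beside 28.7% of all genes that passed as lower. HMOX1, haem oxygenase, was at 206 and 283 RPKM in Huh1 and at 6.39 and 16.2 RPKM in Huh7. SLC7A11, the cystine transporter, was at 53.0 and 63.3 RPKM in Huh1 and at 4.65 and 6.85 RPKM in Huh7. KEAP1, which holds NFE2L2 in check, was at 55.1 and 46.2 RPKM in Huh1 and at 29.3 and 26.1 RPKM in Huh7. The metallothioneins were higher in Huh7, and a link between them and this group was not tested. For the siRNA, HMOX1 alone of the 12 passed (limma 0.84, adjusted p = 0.0216), beside 3.74% of all genes as higher, with a ratio of 1.37 in Huh1 and 2.53 in Huh7.

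Glucocorticoid response genes, whose receptor NR3C1 also acts on metallothionein promoters, were split. Of 9 tested, 6 were higher and 3 lower in Huh7, beside 42.5% and 28.7% of all genes, with a median limma coefficient of 0.84. SGK1, a glucocorticoid-induced kinase, was at 1.02 and 0.850 RPKM in Huh1 and at 48.8 and 34.6 RPKM in Huh7. TSC22D3, the glucocorticoid-induced leucine zipper protein, was at 0.880 and 1.79 RPKM in Huh1 and at 12.6 and 17.7 RPKM in Huh7. It was the 1 gene of the 9 that passed for the siRNA (limma 0.51, adjusted p = 0.0418, and 0.0535 with a pseudocount of 0.1 RPKM), beside 3.74% of all genes as higher. NR3C1 itself was at 21.5 and 26.1 RPKM in Huh1 and lower in Huh7, at 14.6 and 18.3 RPKM.

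Heat shock genes, markers of general protein stress, were all within 2-fold between the lines. Of all genes, 17.0% were 2-fold higher and 10.2% lower with NCsiRNA, and 17.4% and 10.1% with CDCA8siRNA, so 0 of 8 is near these shares. Of 8 tested, 5 were higher and 2 lower in Huh7 in limma, beside 42.5% and 28.7% of all genes. For the siRNA, limma called 0 of the 8, beside 3.74% of all genes as higher and 2.65% as lower, and 0 at an unadjusted p under 0.05. HSF1, the heat shock factor, was at 22.6 and 26.1 RPKM in Huh1 and 28.9 and 30.7 RPKM in Huh7, DNAJB1 at 46.5 and 47.9 RPKM and 70.7 and 60.8 RPKM, and HSPA8 at 958 and 944 RPKM and 1109.85 and 1017 RPKM.

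**Figure D4:**
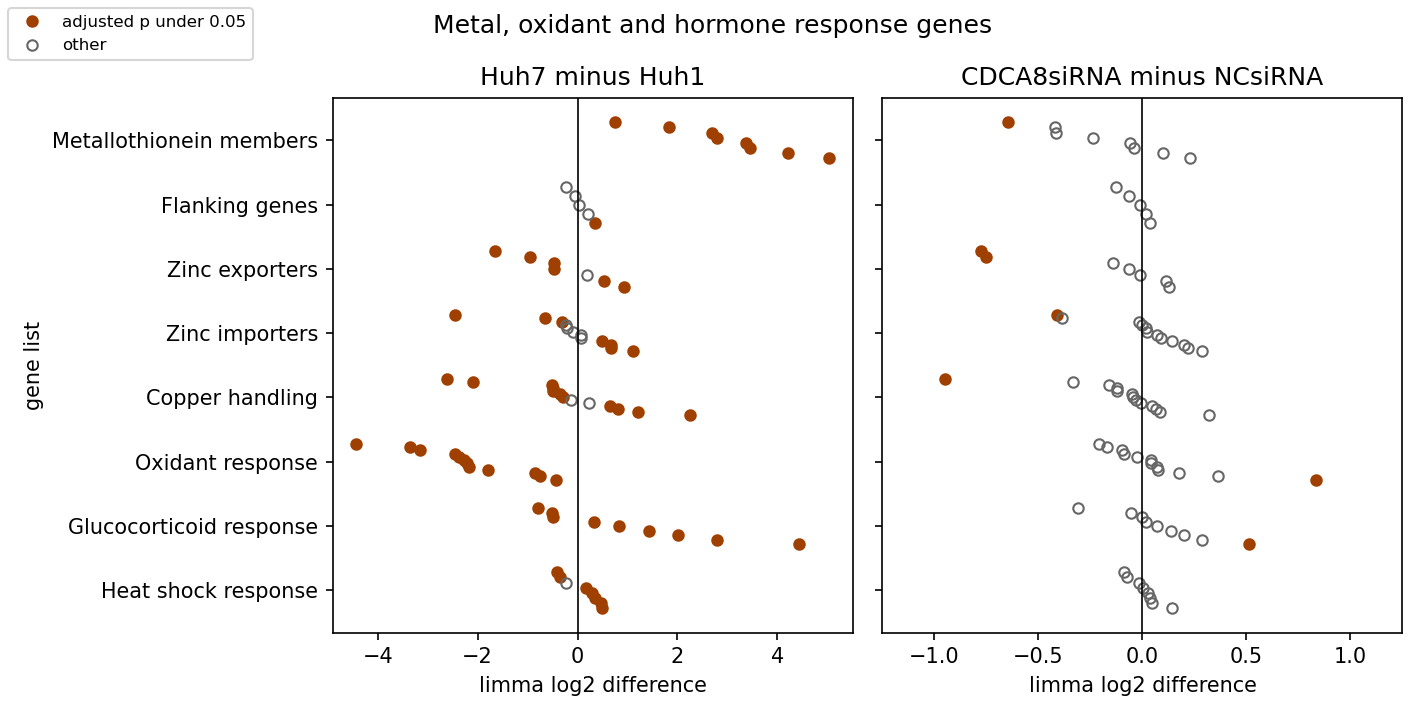
limma log2 coefficients of the genes tested in each list, for the cell line (left) and for the siRNA (right), with filled points for adjusted p under 0.05 and 1 flanking gene not shown. Metallothioneins are all to the right of 0 and oxidant response genes all to the left for the cell line, and for the siRNA 1 metallothionein is filled.

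By the root mean square difference of log2(RPKM + 1) over the 4 libraries, after removing each gene's mean, the 5 genes most like MT2A among 12148 were COL14A1 (0.0283), CXCR4 (0.0392), GAL (0.0449), LIN28A (0.0615) and RFPL4B (0.0653). Each was at or under 0.199 RPKM in Huh1 and between 17.4 and 20.3 RPKM in Huh7. MT2A itself was at 5.35 and 4.88 RPKM in Huh1 and at 111 and 113 RPKM in Huh7. Its likeness to these genes therefore rests on the pseudocount of 1 RPKM, and their ratios between the lines are unlike that of MT2A. The 5 most like MTF1 were C2orf69 (0.0289), C1orf216 (0.0341), SOLH (0.0348), GRN (0.0348) and MICALL2 (0.0414), each lowest in Huh7 with NCsiRNA. With 4 libraries, many genes share such a pattern, and the likeness is a description only.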

How the data were processed

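RNA of Huh1 and Huh7 cells with NCsiRNA or CDCA8siRNA was sequenced, 1 library each, from Illumina TruSeq RNA libraries. The authors deposited 1 value per RefSeq transcript and library without naming the unit, and the values behave as RPKM, normalized for length and depth. Some low values, multiplied by transcript length and divided by a constant of the library, are whole numbers of reads. Others are not, such as MT1B at 0.05 reads in Huh7 with CDCA8siRNA. The submitters' processing notes name TopHat2 2.0.9, CASAVA 1.8.2 and hg19. The counter, the annotation and the treatment of reads shared between copies are not given in the sources used here, nor is a use of strand.

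Samples were grouped by their labels. Reads behind a value came from that constant and the transcript length, taken from GENCODE or, for MT2A, MT1F and MT1G, from the length that gave whole reads. For MT1A, MT1E, MT1H, MT1M, MT1X and MTF1 these numbers are not all whole, so their lengths or shared reads are uncertain. A split of reads between transcripts was not tested, and the intervals treat rounded reads as counts. Ratio intervals are exact binomial at 95% on reads rounded to whole numbers, and levels have exact Poisson intervals. Differences used log2(RPKM + 1) and a minimum of 1 RPKM in 1 or more libraries compared. limma 3.58.1 in R 4.3.3 (lmFit, eBayes with trend) used both factors with Benjamini-Hochberg adjustment. It was checked on simulated libraries. Python 3.11.15 did the rest. Coding sequences were from GENCODE release 29 and promoters from RefSeq. The alternatives were another pseudocount, other minimum values, quantile and upper quartile scaling, 1 factor, and no trend.

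The members, lists and motifs were chosen with earlier results of these data known. The text names every member, the flanking genes that reached 1 RPKM (1 of them is not reported here), and from each other list the 3 genes whose siRNA difference, averaged over both lines with its sign, was largest in size. SLC30A1 was added after its values were seen, the cell type markers are named from their own list, and the genes most like MT2A and MTF1 by the measure given.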

Additional observations from a re-analysis of the deposited data

Results flagged for a closer look

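The difference between CDCA8siRNA and NCsiRNA had opposite signs in Huh1 and Huh7 for 4 genes among the members and the genes named from the pathway lists that reached 1 RPKM in both pairs of libraries. Cell type markers were not screened, and MT1G and MT1H, under 1 RPKM in both Huh1 libraries, were left out. The difference between the lines was not tested for any of the 4, since each line had 1 library per siRNA. For MT2A the log2 difference was -0.11 in Huh1 and 0.03 in Huh7, which are 0.14 apart. For BBS2 it was 0.14 in Huh1 and -0.06 in Huh7, so Huh7 minus Huh1 was -0.20. For HERPUD1 it was -0.02 in Huh1 and 0.05 in Huh7, which are 0.069 apart, and for DNAJB1 it was 0.04 and -0.21, with Huh7 minus Huh1 at -0.26.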

How the results depend on the processing

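The limma fit with both factors already compares the siRNAs within each line, and the fit with 1 factor drops that pairing. No library could be left out of limma, since no residual degree of freedom would remain. The number of members past the limma threshold for the siRNA, 1 as reported, was 0 with a pseudocount of 0.1 RPKM, 0 without the filter on low values, 0 without the trend, 0 with the siRNA as the only factor and 3 (MT1A, MT1E and MT1X) after quantile normalization. At an unadjusted p under 0.05 it was 4 in limma under each of these settings except the fit with the siRNA alone, where it was 0. With a minimum of 5 RPKM the 1 member called was MT1X in place of MT1A. The number of members changed 2-fold in Huh7 was 1 with a pseudocount of 0.1 RPKM. The limma siRNA difference of MT1H, -0.24, became 0.0396 with that pseudocount. The log2 ratio of the summed level in Huh7 was -0.13 with MT2A and -0.27 over the 7 MT1 genes alone. Over all genes, limma called 776 for the siRNA, 45 without the trend, 0 without the filter, 0 with 1 factor and 1260 after quantile normalization, and the cause was not tested. Of 266 values of single members under an alternative, 254 were labelled unchanged, 7 lost a call, 3 gained 1, 1 moved and 1 turned direction. Unchanged meant the same direction and side of the threshold or, without a test, a shift within the counting interval. Ratios with a 0 had no bounded interval, so any shift passed. MT1F between the lines with NCsiRNA, for example, went from 5.10 to 8.38 with the lower pseudocount. The filter settings cannot alter a difference between 2 libraries, so part of the 254 was fixed in advance. All counts of members between the lines stayed within 1.5 times, and MTF1 was 2-fold lower in Huh7 with NCsiRNA after quantile normalization (-1.03) and with the lower pseudocount (-1.0025). Under 50 reads lay behind every Huh1 value of MT1E, MT1X and the lower MT1 genes, which limits what could be seen there.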
